A study of Mus musculus with 31 samples.

Results

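Among single cells of the mouse spinal cord that were labelled ependymal, a minority carried transcripts of the smooth-muscle genes Tagln and Acta2. These contractile cells were defined by a summed count of at least 5 UMIs (unique molecular identifiers, each standing for 1 captured RNA molecule) of Tagln and Acta2 among the cells listed in the authors' deposited cell table. The rule selected 201 of 3285 kept cells, or 6.12%. The matrix held 3500 cells and 27998 genes, and the 215 cells outside the cell table were left out.

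The tissue was spinal cord of mice on a C57BL/6 background, taken apart by tissue digestion and flow cytometry. Cells of the Foxj1_tdT genotype carried a tdTomato reporter named for the ependymal gene Foxj1, and Foxj1_Olig2_tdT cells carried Olig2, which encodes a transcription factor that specifies oligodendrocytes, in addition. Single-cell RNA data came from 6 samples, 1 for each genotype without injury, at 2 wpi and at 4 wpi (read here as weeks after injury). Bulk Smart-seq2 RNA data, from small pools of ependymal cells, came from 12 libraries: each genotype had 2 uninjured, 2 at 1 dpi and 2 at 5 dpi (read as days after injury). Single-cell ATAC data, which count transposase cut sites in open chromatin, came from 1 uninjured sample of non-neuronal spinal cord cells. The cell names of the RNA matrix carry 6 library codes (017, 018, 019, 020, 072 and 073) that could not be tied to the 6 labelled samples. The matrix was therefore treated as 1 sample, no genotype or time was compared among single cells, and no test was made from cells.

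Ependymal cells form the ciliated lining of the cord's central canal, where their motile cilia beat into the cerebrospinal fluid. Tagln encodes transgelin, an actin cross-linking protein, and Acta2 encodes smooth-muscle actin. Both belong to the contractile programme of smooth muscle, pericytes and myofibroblasts, together with the calponin Cnn1, the regulatory myosin light chain Myl9 and the tropomyosins Tpm1 and Tpm2. Many genes of this programme hold a CArG box, the motif bound by serum response factor (SRF), near their start.

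The promoters below are shown because 2 contractile genes, Myl9 and the calponin Cnn2, hold that motif before the gene and 1, Cnn1, does not. A CArG box was searched as CC, then 6 bases each A or T, then GG, which reads as the same class on both strands. The RefSeq table gives windows of 250 bases before a start, which can lie inside the annotated gene and of which some genes have several. Of the 29 windows of 26 genes of a contractile and actin-binding list 5 held the box, or 17.2% (Actg1, Cnn2, Myl6, Myl9 and Vcl), against 482 of all 32851 windows, or 1.47%. The printed sequences, on GRCm38.p6 and all on the + strand, are these windows cut to run 5′ to 3′ up to the base before the annotated gene, with the box in capitals. The Myl9 window covers chr2:156775214-156775407 and its box starts 105 bases before the gene. The Cnn2 window covers chr10:79988350-79988599 and its box starts 56 bases before the gene. The Cnn1 window covers chr9:22099003-22099220 and holds no match, which says only that these letters do not occur there. The windows of Acta2, Tpm1 and Tpm2 held no match either, and Tagln had no window and was not searched.
Myl9: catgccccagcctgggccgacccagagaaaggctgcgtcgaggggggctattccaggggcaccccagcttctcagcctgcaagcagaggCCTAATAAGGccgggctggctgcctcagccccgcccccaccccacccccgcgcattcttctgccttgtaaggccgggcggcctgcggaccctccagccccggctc
Cnn2: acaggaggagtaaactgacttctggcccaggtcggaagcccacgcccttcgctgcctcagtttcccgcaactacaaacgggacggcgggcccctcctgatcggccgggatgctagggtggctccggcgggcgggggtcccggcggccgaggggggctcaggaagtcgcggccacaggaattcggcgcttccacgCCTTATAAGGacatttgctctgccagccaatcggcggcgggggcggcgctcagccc
Cnn1: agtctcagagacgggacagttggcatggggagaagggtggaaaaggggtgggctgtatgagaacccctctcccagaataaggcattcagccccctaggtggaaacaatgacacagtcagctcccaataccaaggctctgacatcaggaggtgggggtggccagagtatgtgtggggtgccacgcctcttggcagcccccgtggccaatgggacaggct

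Contractile cells were found under every library code, and their share differed between codes. They made up 4 of 362 kept cells under code 017 (1.10%, exact Clopper-Pearson 95% interval 0.302 to 2.80%) and 41 of 895 under 018 (4.58%, 3.31 to 6.16%). Under 019 they were 18 of 339 (5.31%, 3.18 to 8.26%) and under 020 they were 29 of 337 (8.61%, 5.84 to 12.1%). Under 072 they were 90 of 992 (9.07%, 7.36 to 11.0%) and under 073 they were 19 of 360 (5.28%, 3.21 to 8.12%). The interval of code 017 lay below those of the other 5 codes. Among those 5, neighbours in this order overlapped, but 018 and 072 did not overlap each other. Code 017 was also the shallowest, with a median of 2714 UMIs in its remaining cells against 5042 to 7298 under the other codes. With every cell thinned to 2000 UMIs and a minimum of 2 summed UMIs, the shares were 2.35% under 017, 5.0% under 018, 7.37% under 019, 10.3% under 020, 7.26% under 072 and 5.83% under 073, leaving out 133 shallower cells. After thinning, the interval of 017 (0.950 to 4.78%) overlapped those of 018 (3.64 to 6.68%), 019 (4.73 to 10.9%) and 073 (3.65 to 8.78%). It lay below those of 020 (7.24 to 14.1%) and 072 (5.72 to 9.05%). Intervals here and below cover counting error only.

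**Figure D1:**
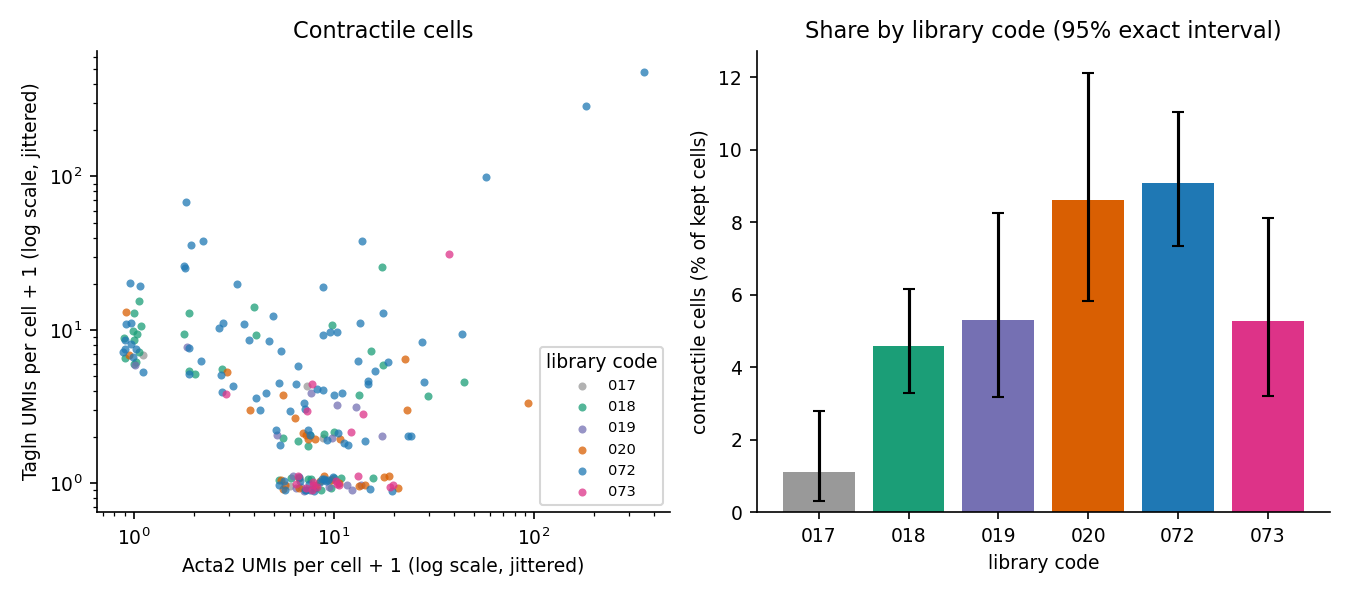
Left, Tagln against Acta2 UMIs of each of the 201 contractile cells (1 added to each count, log axes, small random shifts), coloured by library code; right, their percentage of kept cells by code with exact 95% intervals. Most cells hold only a few UMIs of each gene, 3 cells of code 072 stand far above the rest, and the share runs from 1.10% under code 017 to 9.07% under code 072.

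The summed count that defined these cells had no gap at the threshold of the rule. Of the kept cells 2474 had 0 summed UMIs of the 2 genes, 492 had 1 to 2 and 118 had 3 to 4. At the edge of the rule 56 cells had 4 and were not members, and 28 had 5 and were. Of the members 110 had 5 to 9 UMIs, 61 had 10 to 19 and 30 had 20 or more. Both genes were found in 108 members, Acta2 alone in 67 and Tagln alone in 26. Under 019, 020 and 073 members carried Tagln far less often than Acta2. At least 1 Tagln UMI was present in 44.4% of members under 019, 48.3% under 020 and 31.6% under 073. The share was 80.0% under 072 and 75.6% under 018. Acta2 was present in 73.2% of members under 018 and in 87.8% to 100% under 019, 020, 072 and 073. Members were deeper than other cells, with a median of 7888 UMIs against 5600, as a sum of raw counts favours deep cells. As a description of the rule, Tagln stood at 854 UMIs per 1000000 (CPM) in members and 19.3 in the remaining cells, and Acta2 at 1056 and 33.2.

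The ependymal part of the label held for nearly all of these cells. Of the 201 members 199 drew at least 0.5% of their UMIs from motile cilia genes, a minimum set in a gap of the distribution after seeing it, and they are called ependymal below. The median share was 1.63% in members and 1.53% in the remaining kept cells. Foxj1, the master regulator of motile cilia, had a UMI in 81.6% of members, 74.1% of the remaining ependymal cells and 24.5% of the 216 remaining cells under the minimum. At 2000 UMIs per cell those shares were 43.5%, 42.3% and 8.61%. Both members under the minimum were in code 020. One of them carried 91 UMIs of the collagen gene Col1a1, 80 of Col3a1, 76 of Col1a2 and 32 of the fibroblast proteoglycan Dcn, and it is the source of several values below. Most of the 216 remaining cells under the minimum were in codes 073 (141 cells) and 020 (65 cells).

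Markers of mural cells of blood vessels, which share Tagln and Acta2, stood in sum at the level of the remaining cells, and 10 of 20 were at 0. Of 20 smooth muscle and pericyte markers, 10 had 0 UMIs in all 201 members: Myh11, Des, Rgs5, Kcnj8, Abcc9, Notch3, Higd1b, Atp13a5, Tbx2 and Heyl. For the smooth-muscle myosin Myh11, the muscle filament gene Des and the pericyte gene Rgs5, 0 of 201 cells allows a share of up to 1.49% of members with a UMI. Among the remaining cells Myh11 was at 0 as well. Rgs5 had 1 UMI there, in an ependymal cell, and Des had 7, all in cells under the cilia minimum. The 0 counts of these genes therefore do not set members apart from the remaining cells. The pericyte receptor Pdgfrb had 4 UMIs, all in the collagen-rich cell. Of the 6 markers with enough UMIs for a ratio, as defined below, 1 was past 2-fold higher, Art3 (13 UMIs in 11 cells, ratio 2.82). Mcam (0.429) and Cspg4 (0.198) were the 2 lower ones, where 2.07% of all genes were higher and 4.15% lower. With ependymal cells alone these 2 stood at 1.44 and 1.41, on only 8 and 2 UMIs. In that comparison 1 of 4 markers with enough UMIs was higher and 0 lower, against 2.45% and 1.02% of all genes. The expected values that follow come from all remaining cells, also those under the cilia minimum. Together the 20 genes, with a UMI in 110 members, made up 0.0117% of members' UMIs, against 0.0113% expected, and the range over codes was 0.00732 to 0.0151% in members and 0.0102 to 0.0149% in the remaining cells. The 12 endothelial markers, 8 of them at 0 and among these Cldn5, Flt1 and Cdh5, summed to 39 UMIs against 43.4 expected. The same 2 smooth-muscle genes were scarce in cells that were not ependymal: kept cells under the cilia minimum held Tagln at 2.37 and Acta2 at 8.53 CPM.

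Barcodes and doublets were checked before any gene was compared. Of 3278 barcodes 7 occurred under 2 or more codes, and 2 member cells had such a barcode. Doublets were marked with Scrublet within each code but not removed. Its automatic setting was usable in 4 codes, where it marked 41 of 2584 cells (1.59%), 4 of them members. It failed in codes 017 and 019, where it marked 609 of 701 cells. The marked members included a cell of code 073 with 48855 UMIs, of which 3.75% came from the myelin gene list.

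Other genes were compared with the remaining kept cells of the same code. For each gene the UMIs observed in members were divided by the number expected from the remaining cells, code by code, and the ratio is given with an exact Poisson 95% interval. A gene counted as past 2-fold at a ratio of 2 or more, or 0.5 or less, with at least 10 UMIs observed or expected. Of 10910 genes with enough UMIs, 226 were higher (2.07%) and 453 lower (4.15%). With ependymal cells alone on both sides 260 of 10607 genes were higher (2.45%) and 108 lower (1.02%). Without code 073 the lower genes numbered 215, and without code 072 they numbered 574. Since the cells were chosen by 2 of these genes, all of this is a description.

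Genes of the contractile apparatus were higher in the contractile cells beyond the 2 that defined them. Of the other 24 contractile and actin-binding genes with enough UMIs 9 were higher and 0 lower, against 2.07% and 4.15% of all genes, and their median log2 ratio was 0.46 against -0.01 for all genes. The 9 were Tpm2, Cnn1, Lmod1, Myl9, Cnn2, Tpm1, Pdlim7, Flna and Zyx. Without code 072 the count was 5, and without the 4 cells of more than 100 summed Tagln and Acta2 UMIs it was 6. The cells were chosen by genes of the same programme, so this count is no independent support for the name.

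Myl9, which makes myosin responsive to contraction signals, was higher under every code with at least 10 members. It stood at 212 CPM in members against 37.0 expected, a ratio of 5.73 (5.20 to 6.29), and it was found in 119 cells. By code its ratio was 5.74 under 018, 4.56 under 019, 7.62 under 020, 5.53 under 072 and 6.33 under 073. All 5 codes with at least 10 members were thus well above 1 and close to each other. A Myl9 UMI was present in 59.2% of members, 17.1% of the remaining ependymal cells and 2.31% of remaining cells under the cilia minimum, where median depths were 7888, 5518.5 and 8633 UMIs. At 2000 UMIs per cell the shares were 27.5%, 7.04% and 0.957%.

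Cnn1, Tpm2 and Lmod1 had larger ratios and rested on fewer cells. Cnn1, the smooth-muscle calponin that damps actomyosin, had a ratio of 13.2 (11.3 to 15.4) over 38 cells. Of its 162 UMIs 152 were under code 072 (ratio 17.1), with 6 under 018 (2.26), 4 under 020 (9.80) and 0 under 019 and 073. Tpm2, a muscle tropomyosin that winds along actin, had a ratio of 26.9 (21.1 to 33.8) over 15 cells, and 40 of its 73 UMIs were in 1 cell. Lmod1, the smooth-muscle leiomodin that nucleates actin filaments, had a ratio of 10.1 (6.64 to 14.6) over 19 cells. Without the 4 cells of more than 100 summed Tagln and Acta2 UMIs the ratio was 5.97 for Cnn1, 6.42 for Tpm2, 8.47 for Lmod1 and 1.26 for Cnn2, which had been 2.89. Those 4 cells had 772, 454, 168 and 103 summed UMIs, 0 UMIs of Myh11, Des, Rgs5 and Pdgfrb, and cilia shares of 0.613, 0.770, 0.856 and 1.33%.

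Broadly expressed cytoskeleton genes had smaller ratios. Tpm1 was 2.55 times the expected level (2.35 to 2.77), Pdlim7, a scaffold of actin stress fibres, 2.33 times (1.71 to 3.08), the actin cross-linker Flna 2.10 times (1.80 to 2.43) and the focal adhesion gene Zyx 2.06 times (1.46 to 2.81). The non-muscle actins Actb (ratio 1.11) and Actg1 (0.925) were close to the expected level, as were Tagln2 (1.11) and Cald1 (1.20). The smooth-muscle gene Smtn had 0 UMIs with 2.46 expected, and Actg2 had 0 in all cells.

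Wisp2, a secreted relative of connective tissue growth factor, had the highest ratio among the abundant secreted products. It stood at 192 CPM against 23.5 expected, a ratio of 8.17 (7.38 to 9.03) over 84 cells. Its ratio was 16.3 under 018, 33.6 under 020, 7.22 under 072 and 3.13 under 073. Under 019 it had 0 UMIs with 0.263 expected, so no difference was detectable there. A Wisp2 UMI was present in 41.8% of members, 5.33% of the remaining ependymal cells and 1.39% of the remaining cells under the minimum, and at 2000 UMIs per cell in 22.5%, 2.26% and 0 of 209 cells, which allows a share of up to 1.44%.

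**Figure D2:**
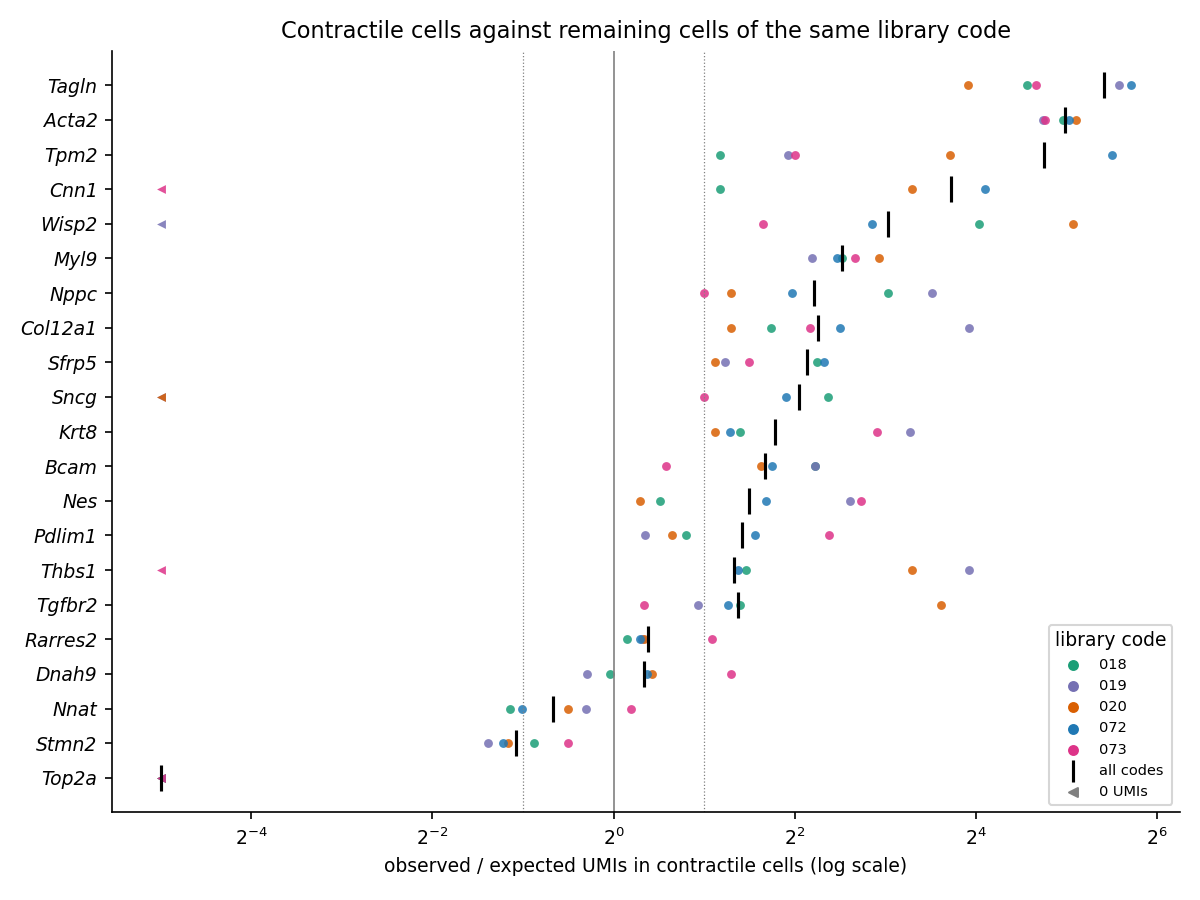
Ratio of observed to expected UMIs in contractile cells (log axis) for rule genes, named genes and controls, 1 point per library code with at least 10 members and a bar for all codes; dotted lines mark 2-fold each way and triangles mark 0 UMIs. Tagln and Acta2 were used to choose the cells, Myl9 lies between 4.56 and 7.62 in every code, and the codes spread widely for Cnn1, Wisp2 and Tpm2.

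Some genes were higher in every code with at least 10 members. By that criterion, with a ratio of 2 or more and at least 20 UMIs, 49 genes qualified, and 79 were lower by the matching one. Within a code, higher meant only more UMIs than expected. A single UMI could be enough, as for Tpm2 under 018, 019 and 073. The 20 with the highest ratios include Tagln, Acta2, Myl9 and Tpm2, and all 20 stayed at 2-fold or more with ependymal cells alone and without the 4 cells of more than 100 UMIs. Several encode secreted signals. Nppc, the C-type natriuretic peptide that raises cyclic GMP, had a ratio of 4.63 (3.93 to 5.40) over 72 cells. By code it was 8.14 under 018, 11.4 under 019, 2.45 under 020, 3.91 under 072 and 2.0 under 073. Its values under 019, 020 and 073 rest on 3, 3 and 2 UMIs, against 53 under 018 and 98 under 072. Sfrp5, a secreted Wnt antagonist, had a ratio of 4.39 (3.47 to 5.48) over 41 cells. Its codes ran from 2.18 to 5.0, with only 2 UMIs each under 019 and 020. Fgf7, a growth factor for epithelial cells, had a ratio of 2.74 (1.98 to 3.69).

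The others included structural, surface and unrelated genes. Col12a1, a collagen that coats fibrils, had a ratio of 4.76 (3.26 to 6.72) over 24 cells. The epithelial keratin Krt8 had a ratio of 3.44 (2.44 to 4.73), the laminin receptor Bcam 3.17 (2.52 to 3.95), and Nes, the intermediate filament of neural progenitors, 2.82 (2.17 to 3.60). Pdlim1, an adaptor of actin fibres, had a ratio of 2.68 (2.07 to 3.41). Alb, best known as the serum albumin of the liver, had 27 UMIs in 21 cells with 2.79 expected (ratio 9.66, 6.37 to 14.1). Its count was 7 under 018, 1 under 019, 3 under 020, 8 under 072 and 8 under 073, so it rests on few molecules in each. The rest of the 20 were Poln, Slco1a5, 4933417D19Rik, 1500009C09Rik, Iqsec2, Capn3 and Hist1h4j, with ratios of 2.73 to 4.54. Sncg, a synuclein, fell outside this set because codes 019 and 020 had 0 UMIs, with 0.263 and 0.306 expected. Its ratio over all codes was 4.12 (3.48 to 4.86).

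Of 22 matrix and secreted genes with enough UMIs 12 were higher and 0 lower, against 2.07% and 4.15% of all genes. Much of the higher count came from the collagen-rich cell. With ependymal cells alone 3 of 14 were higher and 0 lower, against 2.45% and 1.02% of all genes. Both counts of 0 are near the general share. The 3 were Wisp2 (ratio 7.87), the insulin-like growth factor binding protein Igfbp7 (3.47) and Sparc (2.03). Sparc, a matrix-binding glycoprotein, was found in 196 of 201 members at 1326 CPM against 606 expected. All 80 UMIs of Col3a1, 62 of Igfbp3 and 20 of Tnc were in that 1 cell. The 14 fibroblast and meningeal genes made up 0.157% of members' UMIs under code 020, which holds it, against 0 to 0.0669% under the other codes, and 4 of them had 0 UMIs. With ependymal cells alone Col1a1 had a ratio of 0.833 and Dcn of 0.428.

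Signalling lists moved less. Of 8 SRF and YAP target genes with enough UMIs 2 were higher and 0 lower: the kinase gene Nuak2 (ratio 2.59, 1.82 to 3.57) and Thbs1, the matrix protein thrombospondin (2.51, 1.83 to 3.35). Srf itself was at 1.12 (0.800 to 1.54) and Cyr61 at 1.46 (1.37 to 1.55). Of 9 genes of transforming growth factor beta (TGF-beta) signalling 1 was higher, the receptor Tgfbr2 (2.59, 1.89 to 3.46). The partner receptor Tgfbr1 was lower (0.446, 0.204 to 0.846). The feedback inhibitor Smad7 was lower too (0.360, 0.214 to 0.570), but with ependymal cells alone its ratio was 1.20. None of the 8 Notch genes with enough UMIs was past 2-fold in this comparison, nor were the 6 microglial ones. Of all genes 2.07% were higher and 4.15% lower, so these absences are near the general share.

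The ciliated programme was close to that of the remaining cells. Of 40 ependymal and motile cilia genes 0 were past 2-fold either way, against 2.07% higher and 4.15% lower of all genes. The 0 is near those shares, so it does not set the cilia genes apart. Their median log2 ratio was 0.06, against -0.01 for all genes. The secreted adipokine Rarres2 had a ratio of 1.31 (1.27 to 1.34), and the outer-arm dynein Dnah9 1.26 (1.10 to 1.43). Nnat, a small membrane protein abundant in ependymal cells, had the lowest of those ratios at 0.627 (0.616 to 0.638), with 0.454 under 018, 0.810 under 019, 0.704 under 020, 0.495 under 072 and 1.14 under 073. The microtubule regulator Stmn2 was lower at 0.473 (0.415 to 0.536), below 1 in all 5 codes with at least 10 members (0.382 to 0.706). Aldoc, the aldolase of astrocytes, was at 0.589 (0.504 to 0.684), below 1 in 4 of those 5.

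The largest deficits followed the other cells under codes 020 and 073. Of the 15 myelin genes with enough UMIs 14 were lower, and of 16 oligodendrocyte progenitor genes 14 were lower, against 4.15% of all genes. Myelin genes made up 2.79% of the UMIs of remaining cells under 073 and 0.866% under 020, against 0.0265 to 0.0923% under the other 4 codes. Among the 12 genes with the lowest ratios, Apod, Dusp15, 2810417H13Rik, Bcan, Hist1h2ap, Plcb1, Mag, 3632451O06Rik, Syt4, Mgll, Tmem163 and Trf, only 4 stayed at 0.5 or less with ependymal cells alone. These were Plcb1 (0.0992), 2810417H13Rik (0.261), Syt4 (0.416) and 3632451O06Rik (0.461). In that comparison 9 of 12 myelin genes were instead higher, against 2.45% of all genes. The myelin-rich cell of code 073 is among these members. Of 16 cell cycle genes 7 were lower over all cells, against 4.15% of all genes. With ependymal cells alone it was 0 of 9, against 1.02%. That 0 does not mean that the deficit was absent there, since genes with few UMIs dropped out of the count. Ccnb2 (ratio 0.218), Mki67 (0.244) and Birc5 (0.215) reached 10 UMIs neither observed nor expected in that comparison. Top2a, the topoisomerase of dividing cells, had 0 UMIs in members with 32.6 expected, and 7.70 expected with ependymal cells alone.

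Within ependymal cells of all codes pooled, the partner genes followed the summed Tagln and Acta2 count, also below the threshold of the rule. Myl9 stood at 31.6 CPM (28.6 to 34.9) in cells with 0 summed UMIs, 55.4 (48.0 to 63.5) at 1 to 2 and 92.9 (74.9 to 114) at 3 to 4. It stood at 102 CPM (82.9 to 125) at 5 to 9, 176 at 10 to 19 and 524 at 20 or more. Wisp2 took the values 11.7, 30.4, 87.8, 113, 154 and 449 CPM over the same 6 ranges. Cells just outside the rule, with 3 to 4 UMIs, thus overlapped those just inside, with 5 to 9, for Myl9 and for Wisp2 (70.3 to 108 against 92.6 to 137), and Tpm1 stood at 194 and 172. They did not overlap for Nppc (28.0 to 53.8 against 54.1 to 89.3) or Sfrp5 (6.26 to 21.2 against 29.0 to 56.2). Cnn1 stood at 5.08, 7.60, 10.1, 17.2, 32.2 and 310 CPM, and without the cells of more than 100 UMIs the last was 95.1. Foxj1 lay between 287 and 373 CPM in all 6 ranges and the ciliary dynein Dnah12 between 454 and 525. These levels were not standardised by code, unlike the ratios above. The codes differ in level: Wisp2 in remaining cells stood at 35.2 CPM under 072 and 1.93 to 13.0 under the other codes. Median depth also grew over the ranges, from 5321 to 9946.5 UMIs per cell. The parts of code and depth in these levels were not tested.

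**Figure D3:**
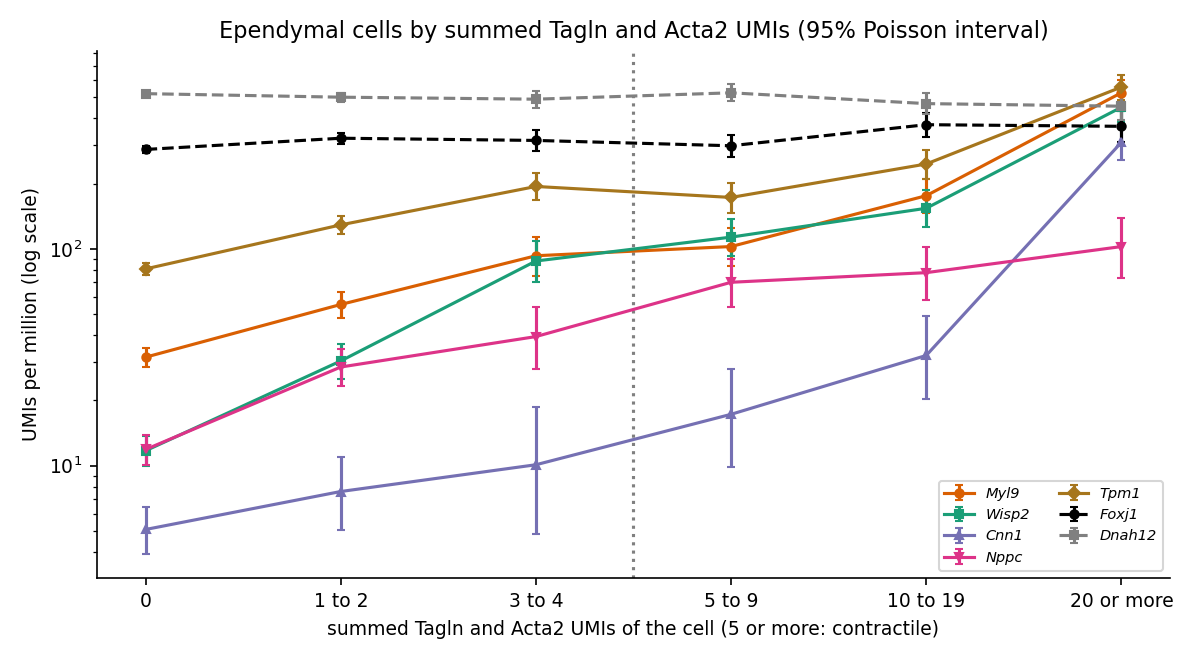
Level of each gene (CPM, log axis, exact Poisson 95% intervals) in ependymal cells of all codes pooled, by the cell's summed Tagln and Acta2 UMIs, with a dotted line at the threshold of the rule. Myl9, Wisp2, Cnn1, Tpm1 and Nppc are higher at 20 or more than at 0 UMIs, while Foxj1 and Dnah12 (dashed) stay within 287 to 373 and 454 to 525.

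Under code 072 members with Tagln carried more Wisp2 than members with Acta2 alone, and members with both genes also carried more Myl9. The other codes differed in this. Code 072 holds 90 of the 201 members. Under it Wisp2 stood at 332 CPM in 11 cells with Tagln only, 277 in 61 cells with both, 100 in 18 cells with Acta2 only and 35.2 in the remaining cells. Myl9 under that code stood at 141, 283, 58.1 and 41.9 CPM in the same order. Its interval for Tagln-only cells (82.1 to 226) overlapped that for Acta2-only cells (29.0 to 104), and that for cells with both (248 to 321) did not. Without its 3 cells of more than 100 summed UMIs the cells with both stood at 173 for Myl9 and 205 for Wisp2 (an alternative added after seeing the data). Under 018 Myl9 stood at 270, 284 and 210 CPM with overlapping intervals. Wisp2 there stood at 135, 290 and 120 CPM, with 13.0 in the remaining cells, and Sparc at 2941, 1883 and 871 against 801. Under 020 the 15 cells with Acta2 only had 0 Wisp2 UMIs (interval up to 39.5 CPM), while the 12 with both stood at 154. The interval for Acta2-only cells lay below that for cells with both in codes 072 (60.5 to 157 against 243 to 315) and 020, and overlapped in 018 (51.9 to 237 against 213 to 386) and 073 (3.67 to 52.0 against 8.08 to 115). Under 019 no member had a Wisp2 UMI. Both genes belong to the rule, so this describes how the selected cells differ among themselves.

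The bulk libraries measured the same genes in other samples, with and without injury. Their times after injury were days, where those of the single-cell samples were weeks. The gene lists were chosen with earlier results of these data known, so counts over a list are not an independent test. Olig2, the gene added in Foxj1_Olig2_tdT, stood at 2.2 to 195.2 normalised counts in the 6 Foxj1_tdT libraries and 1690.3 to 3960.9 in the 6 Foxj1_Olig2_tdT libraries, so the ranges did not overlap. Library sums lay between 12601290 and 13878102 after the authors' scaling, and the true depth is unknown. Changes are log2 fold changes on the log2(value + 1) scale, which understates low genes, with the SE of the fit. Adjusted p-values are from limma with Benjamini-Hochberg adjustment over all 15811 genes tested. No source says whether the 2 replicates of a group were separate animals. The p-values therefore reflect only how far these libraries differ, which may be technical spread. In bulk samples fewer cells of a type and less RNA per cell cannot be told apart, and neither can more contractile cells and more contractile RNA per cell. The Foxj1_tdT uninjured pair was much closer than the other pairs (SD of the log2 difference 0.506, against 1.20 to 1.83), and calls with that pair entered as 1 library are given beside the counts.

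Contractile genes rose in number at 5 dpi in both genotypes. In Foxj1_tdT 18 of 29 tested contractile and actin-binding genes rose (against 13.8% of all genes) and 1 fell (against 9.21%), with a median log2 change of 1.40 against 0.04 for all genes. In Foxj1_Olig2_tdT 24 rose (against 17.2%) and 2 fell (against 14.0%), with a median of 2.25 against 0.12. At 1 dpi 11 were called in Foxj1_tdT, 8 of them higher (against 27.4% of all genes called either way), and 9 in Foxj1_Olig2_tdT, 7 of them higher (against 8.09%). The same 18 genes rose at 5 dpi in both genotypes. With the uninjured Foxj1_tdT pair as 1 library 8 genes were called at 5 dpi in Foxj1_tdT in place of 19, and 3 at 1 dpi in place of 11. Single libraries moved the smaller counts: the 19 became 7 or 9 without either uninjured Foxj1_tdT library and 10 without 5 dpi replicate 1, and the 11 became 3 or 6 without either uninjured library and 5 without 1 dpi replicate 2. The 9 genes called at 1 dpi in Foxj1_Olig2_tdT became 5 without either uninjured Foxj1_tdT library, 2 without the uninjured Foxj1_Olig2_tdT replicate 1 and 3 without its 1 dpi replicate 2. The 26 called at 5 dpi in Foxj1_Olig2_tdT stayed between 22 and 26.

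Tagln rose at 5 dpi. It read 176.0 and 227.3 in the uninjured Foxj1_tdT pair, 124.2 and 771.6 in the 1 dpi pair and 12869.3 and 2397.4 in the 5 dpi pair (log2 change at 5 dpi 4.79 ± 1.24, adjusted p = 0.0206). In Foxj1_Olig2_tdT it read 169.6 and 137.1, then 11.5 and 178.9, then 6901.6 and 2682.1 (4.81 ± 1.24, adjusted p = 0.0149). The 5 dpi libraries stood above all uninjured and 1 dpi libraries of the same genotype. Each of the 12 libraries was also left out in turn. The call was lost in Foxj1_tdT without either uninjured library (log2 change 4.61 and 4.97) or 5 dpi replicate 1 (3.58), and in Foxj1_Olig2_tdT without uninjured replicate 2 (4.66) or 5 dpi replicate 1 (4.13).

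Acta2 rose as well, from a higher level. It read 1698.6 and 1669.9 in the uninjured Foxj1_tdT pair, 539.8 and 711.1 in the 1 dpi pair and 27906.0 and 3293.6 in the 5 dpi pair (2.51 ± 0.80, adjusted p = 0.0474). In Foxj1_Olig2_tdT it read 2793.6 and 1223.1, then 677.9 and 1455.5, then 37274.2 and 26868.5 (4.10 ± 0.80, adjusted p = 0.00353). The pairs at 5 dpi did not overlap the uninjured ones, though the Foxj1_tdT pair at 5 dpi was far apart in itself. Leaving out any of 9 of the 12 libraries ended the Foxj1_tdT call, and without 5 dpi replicate 1 its log2 change was 0.97. Leaving out none of the 12 ended the Foxj1_Olig2_tdT call.

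The muscle tropomyosin Tpm2 and the calponin Cnn1 rose from low levels. Tpm2 read 1.2 and 2.7 in uninjured Foxj1_tdT libraries, was listed at 0 in both at 1 dpi, and read 2533.2 and 616.0 at 5 dpi (8.78 ± 1.36, adjusted p = 0.00172). In Foxj1_Olig2_tdT both uninjured libraries listed it at 0, and it read 1702.8 and 1391.7 at 5 dpi (adjusted p = 0.000278). Cnn1 read 87.4 and 46.6 in uninjured Foxj1_tdT libraries and 10377.8 and 1118.0 at 5 dpi (5.72 ± 1.69, adjusted p = 0.0355), and in Foxj1_Olig2_tdT 115.9 and 1.3 and then 5294.5 and 2755.5 (7.86 ± 1.69, adjusted p = 0.00601). Neither gene overlapped between uninjured and 5 dpi libraries. The Foxj1_tdT call of Cnn1 was lost on leaving out 7 of the 12 libraries in turn, with log2 changes of 4.11 to 7.32, and the Tpm2 calls were lost on leaving out none.

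Cnn2, a calponin of non-muscle cells, was the only contractile gene whose change at 5 dpi passed the test for a difference between genotypes (against 7.28% of all genes, 2.64% with a larger change in Foxj1_Olig2_tdT and 4.64% with a smaller one). It read 102.1 and 88.3 without injury and 1553.5 and 813.8 at 5 dpi in Foxj1_tdT. In Foxj1_Olig2_tdT it read 0.0 and 0.8 and then 2175.0 and 1670.7. The difference was 6.92 ± 1.39 (adjusted p = 0.0176). With a pseudocount of 8 the difference was 4.37, since the uninjured Foxj1_Olig2_tdT libraries lie near 0. The call was lost with the Foxj1_tdT uninjured pair as 1 library and on leaving out 5 single libraries: either uninjured Foxj1_tdT library, its 5 dpi replicate 2 or either 5 dpi library of Foxj1_Olig2_tdT. Of the contractile genes 12 of 29 had an unadjusted p under 0.05 in this test, against 3751 of all 15811 genes.

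**Figure D4:**
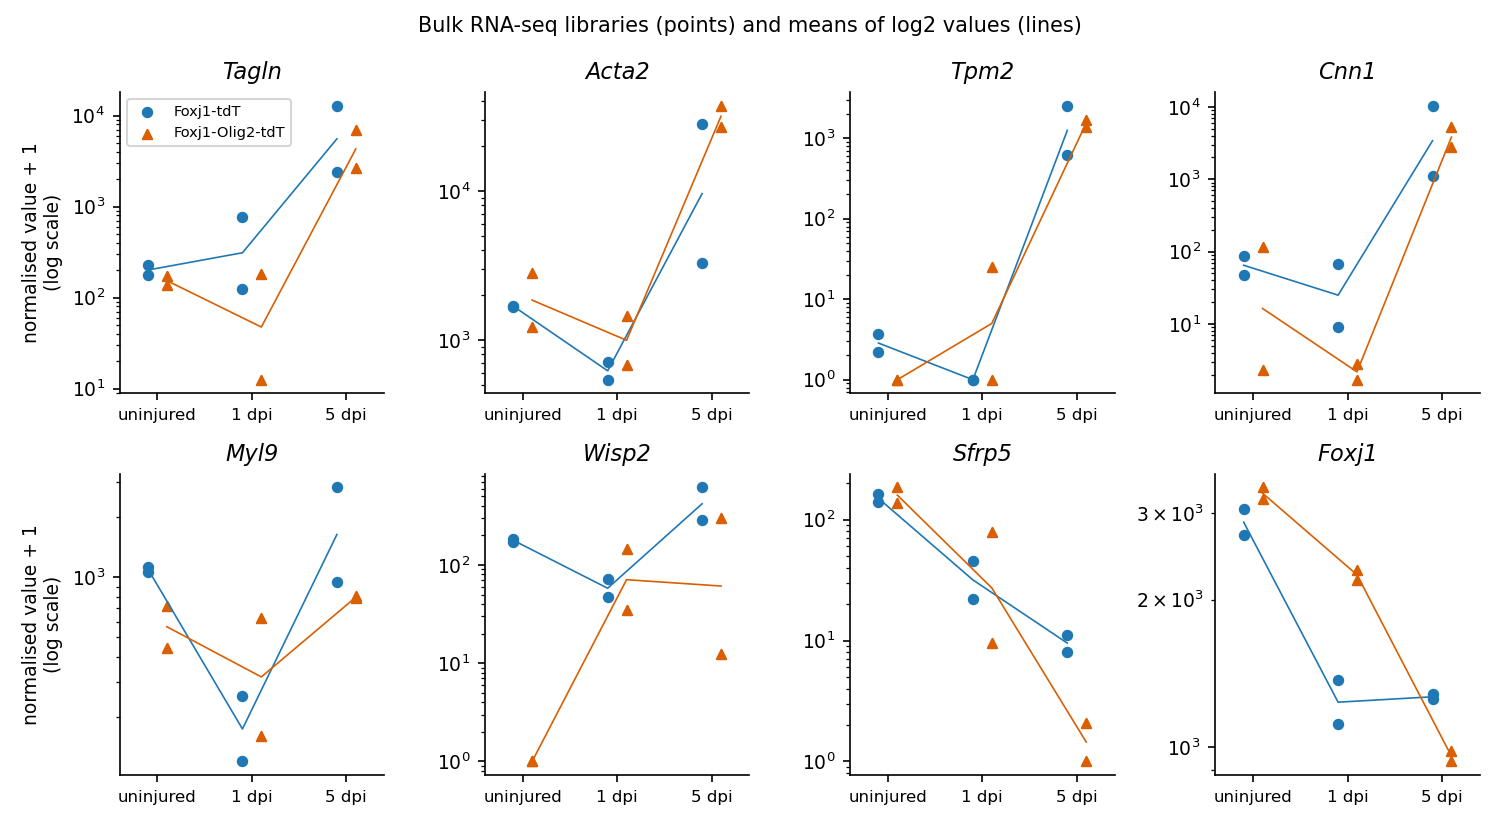
Normalised counts plus 1 (log axes with separate ranges) in each bulk library for 8 genes by time and genotype; points are libraries and lines join means of log2 values. Tagln, Acta2, Tpm2 and Cnn1 are highest at 5 dpi, Foxj1 and Sfrp5 are lower at 5 dpi than without injury, and Myl9 at 5 dpi lies on both sides of its uninjured values in Foxj1_tdT (952.3 and 2825.9 against 1064.3 and 1132.0).

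Myl9 and Wisp2, which went with Tagln and Acta2 between cells, were not called at 5 dpi in Foxj1_tdT. Myl9 read 1064.3 and 1132.0 in the uninjured Foxj1_tdT pair, 251.8 and 118.3 in the 1 dpi pair and 2825.9 and 952.3 in the 5 dpi pair. It fell at 1 dpi (-2.66 ± 0.67, adjusted p = 0.0154), and the 5 dpi change missed the threshold there (0.58 ± 0.67, adjusted p = 0.581) and in Foxj1_Olig2_tdT (0.49 ± 0.67, adjusted p = 0.615). Wisp2 read 182.7 and 172.1 without injury and 614.1 and 285.3 at 5 dpi in Foxj1_tdT (1.23 ± 1.30, adjusted p = 0.542). In Foxj1_Olig2_tdT it was listed at 0 without injury and read 33.6 and 144.0 at 1 dpi (adjusted p = 0.0194) and 11.3 and 301.8 at 5 dpi (adjusted p = 0.00657). The Myl9 call was lost without either uninjured library or 1 dpi replicate 2 (log2 change -2.12), and the 1 dpi call of Wisp2 without uninjured replicate 1 or 1 dpi replicate 2, and with a pseudocount of 8.

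The 18 genes that rose in both genotypes at 5 dpi include Tpm1. It read 1640.8 and 1630.8 and then 12101.3 and 5336.4 in Foxj1_tdT (2.30 ± 0.33, adjusted p = 0.00122), and 1510.1 and 1240.8 and then 23370.0 and 22409.2 in Foxj1_Olig2_tdT (4.06 ± 0.33, adjusted p = 1.73e-05). Flna, Pdlim7, Zyx, Actb, Myh9, Mylk, Smtn and Itga1 were also among the 18. The caldesmon gene Cald1 fell at both times in both genotypes, with log2 changes of -0.88 to -1.46. The -0.88, at 5 dpi in Foxj1_tdT, lost its call without either uninjured library and without 5 dpi replicate 2 (-0.47), and the 1 dpi call in Foxj1_Olig2_tdT was lost without its uninjured replicate 1 or either 1 dpi library. Lmod1, with a single-cell ratio of 10.1, read 24.6 and 30.7 without injury and 43.0 and 27.5 at 5 dpi in Foxj1_tdT and was not called.

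Of the 20 genes with the highest single-cell ratios 19 were tested in bulk. At 5 dpi 8 rose and 1 fell in Foxj1_tdT, and 6 rose and 1 fell in Foxj1_Olig2_tdT (against 13.8% and 9.21%, and 17.2% and 14.0%, of all genes). Tagln, Acta2 and Tpm2, counted above, are among those that rose in both. The filament gene Nes read 68.9 and 88.9 without injury and 3119.3 and 3677.1 at 5 dpi in Foxj1_tdT (5.42 ± 0.35, adjusted p = 3.95e-05), and Col12a1 read 7.7 and 16.4 and then 2602.2 and 1894.9 (7.50 ± 0.62, adjusted p = 8.97e-05). Pdlim1 read 0.4 and 4.5 and then 1819.1 and 1182.0 in Foxj1_tdT (adjusted p = 0.00038), and 71.8 and 197.5 and then 2835.4 and 2441.3 in Foxj1_Olig2_tdT (adjusted p = 0.00915). The Wnt antagonist Sfrp5 went the other way: it read 137.9 and 161.0 and then 10.2 and 7.1 (-3.98 ± 1.03, adjusted p = 0.0202), and in Foxj1_Olig2_tdT 136.8 and 183.6 and then 0.0 and 1.1 (-6.78 ± 1.03, adjusted p = 0.000785). Nppc, Krt8, Fgf7, Alb and Poln were called in neither genotype at 5 dpi, and Bcam rose in Foxj1_tdT alone among the 2 (2.84 ± 0.71, adjusted p = 0.0175), a difference between genotypes that missed its own test (adjusted p = 0.292). The Foxj1_tdT call was lost without either uninjured Foxj1_tdT library for Bcam and Sfrp5, without 5 dpi replicate 2 for both, and without 5 dpi replicate 1 for Sfrp5. The Pdlim1 call in Foxj1_Olig2_tdT was lost without uninjured replicate 1 or either 5 dpi library.

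Genes of other cell types moved in the same libraries. Of 9 tested fibroblast and meningeal genes 4 rose and 0 fell at 5 dpi in Foxj1_tdT and 6 rose and 0 fell in Foxj1_Olig2_tdT, where 13.8% and 17.2% of all genes rose. Their summed level was 491 to 569 in uninjured Foxj1_tdT libraries and 5262 to 6809 at 5 dpi, and 299 to 1017 and then 9538 to 10542 in Foxj1_Olig2_tdT. At 1 dpi the Foxj1_tdT libraries stood at 465 and 13859, one of them above both 5 dpi libraries, and the summed myelin genes read 2760 and 26645 in that pair against 15316 to 15348 without injury. Col1a1 read 25.1 and 3.1 without injury and 841.9 and 673.0 at 5 dpi in Foxj1_tdT, and 2.8 and 6.2 and then 2467.9 and 2583.2 in Foxj1_Olig2_tdT. At 5 dpi 13.8% of all genes rose and 9.21% fell in Foxj1_tdT, and 17.2% and 14.0% in Foxj1_Olig2_tdT. Of 11 tested smooth muscle and pericyte genes 4 rose and 1 fell, and 4 rose and 2 fell, in the 2 genotypes at 5 dpi. Their summed level was 3819 to 3899 and then 2102 to 2110 in Foxj1_tdT, and 4204 to 5722 and then 1829 to 2033 in Foxj1_Olig2_tdT. Rgs5 was listed at 0 in 9 of the 12 libraries, and read 57.3 and 27.5 in Foxj1_tdT and 0 and 12 in Foxj1_Olig2_tdT at 5 dpi. Myh11, Des and Pdgfrb had no value in the bulk table analysed here. Of 40 cilia genes 0 rose and 29 and 38 fell (against 9.21% and 14.0% of all genes), Foxj1 among them (-1.18 ± 0.16, adjusted p = 0.000892, and -1.78 ± 0.16, adjusted p = 3.04e-05). The part of any of these in the rise of the contractile genes was not tested.

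Chromatin at the contractile genes was open in uninjured ependymal classes. The ATAC matrix held 1084 cells with the authors' class names, of which EP1, EP2 and EP3 (301, 290 and 163 cells) are read here as ependymal from their Foxj1 signal. Levels are cut sites per 1000000 cut sites of a class, with counting error only, and positions are on mm10. The Foxj1 peak at chr11:116328911-116337377, spanning the gene, stood at 250, 235 and 282 in those classes, 108 and 132 in ACNT1 and ACNT2 (111 and 62 cells), and 38.2 in PER (40 cells). The peak at chr19:34253742-34255890, over the start of Acta2, stood at 30.3, 21.2 and 26.5 in the EP classes and 0 (interval up to 3.12) and 0.908 in the ACNT classes. It stood at 4.72 in OPC, 8.76 (2.39 to 22.4) in VEC and 17 (9.70 to 27.6) in PER, whose interval overlapped those of the EP classes. The peak in the pericyte gene Rgs5 stood at 0.971, 2.29 and 1.28 in EP and at 0 in PER (interval up to 3.91).

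The other peaks differed in how far they set ependymal classes apart. The peak over the start of Cnn1 at chr9:22098744-22101338, which holds the Cnn1 sequence printed above, was chosen after its values were seen. It stood at 25.2, 22.9 and 28.1 in the EP classes, 0 and 1.82 in ACNT, 1.57 in OPC, 4.38 in VEC and 2.12 in PER. The Tagln peak at chr9:45935649-45937408, over the end of the gene with the higher coordinate, stood at 9.71, 15.1 and 23.7 in EP, 10.1 and 17.3 in ACNT and 14.9 in PER. The Myl9 peak at chr2:156774537-156775799, over the start and the printed CArG box, stood at 23.1, 19.8 and 18.4 in EP, 16.9 and 7.72 in ACNT and 52.0 in PER. The Wisp2 peak at chr2:163820308-163821221 stood at 11.2, 13.0 and 16.4 in EP, 6.76 and 12.7 in ACNT and 18 in PER.

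**Figure D5:**
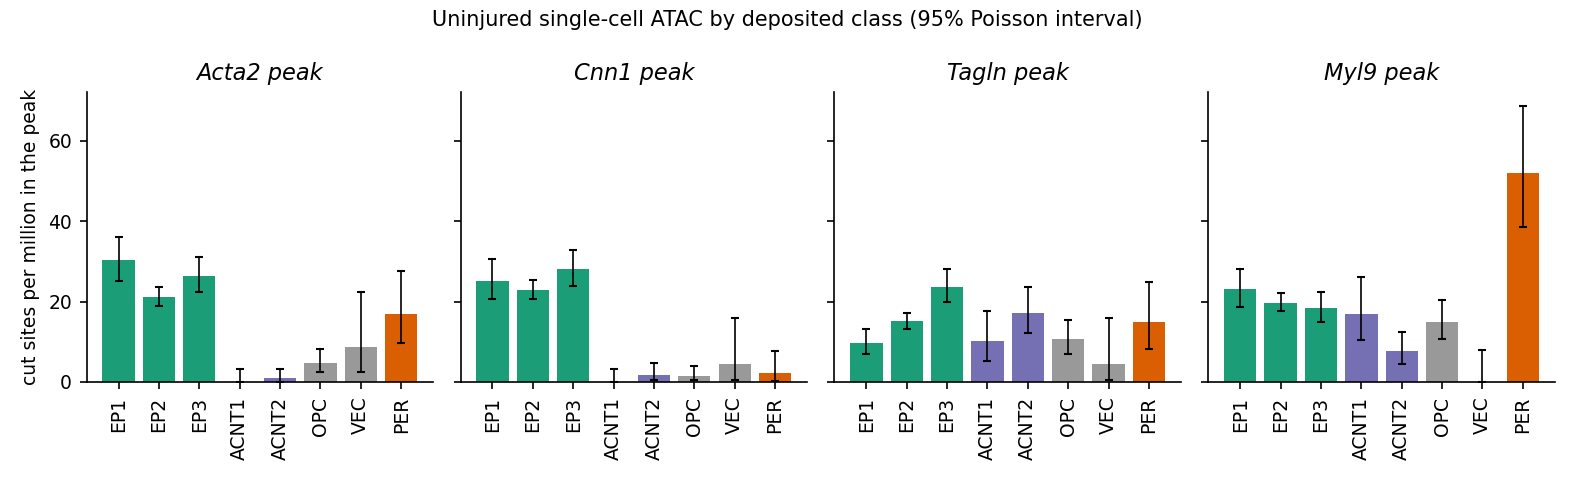
Cut sites per 1000000 in 1 peak of Acta2, Cnn1, Tagln and Myl9 for each class of uninjured cells named by the authors, with exact Poisson 95% intervals. The Acta2 and Cnn1 peaks are highest in the 3 EP classes, though for Acta2 the PER interval (9.70 to 27.6) overlaps theirs. The Tagln peak overlaps between EP and ACNT classes, and the Myl9 peak is highest in PER at 52.0.

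Summed over peaks within 2 kb of each gene, the EP classes stood at 36.6 per 1000000 for Acta2 against 10.6 in the ACNT classes (ratio 3.44, 2.47 to 4.95) and at 24.5 against 1.18 for Cnn1 (ratio 20.7, 8.05 to 76.2). The ratio was 1.69 (1.24 to 2.37) for Myl9, 1.81 (1.32 to 2.52) for Wisp2 and 1.09 (0.812 to 1.49) for Tagln, beside 2.0 (1.81 to 2.22) for Foxj1. The Acta2 and Cnn1 intervals thus lay above that of Foxj1, and the Tagln interval included 1. The classes hold all ependymal cells of 1 uninjured sample, and the ATAC cells cannot be matched to the RNA-defined contractile cells.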

How the data were processed

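Single-cell RNA counts (UMIs) were used as the authors deposited them, with library codes and a deposited table of kept cells. The single-cell ATAC matrix holds counts of cut sites per peak, with classes deposited by the authors. The bulk values are a normalised signal as deposited by the authors. Their normalisation is not given in the sources used here, whole reads could not be recovered, and the depth is unknown. Of builds and tools, the submitters' processing notes list mm10, Bowtie2, deepTools, SAMtools, Cell Ranger and Cell Ranger ATAC, with no role for any. The series has 31 samples, and its 12 bulk ATAC libraries were not analysed here.

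Single cells were described without a test, using observed and expected UMIs per library code and exact Poisson intervals at 95% (Python 3.11.15, scipy 1.17.1). Scrublet was run through scanpy 1.11.5. Bulk values were tested with limma 3.58.1 in R 4.3.3 on log2(value + 1), with trended variances and 12 libraries in 1 fit of 6 groups of 2. The test kept 15811 of 16301 genes, those reaching 10 in 2 or more libraries, and a call is a Benjamini-Hochberg adjusted p under 0.05. On simulated data 200 of 200 changed bulk genes were called, and in single cells 100 of 100 higher and 99 of 100 lower genes were recovered. The simulated bulk spread was smaller than that between the real pairs, and single-cell counts were drawn without extra spread between cells. The recovery therefore checks the calculation only and says nothing of power in these data.

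The members and gene lists were chosen with earlier results of these data known. Named genes were Tagln, Acta2, Myl9 and Wisp2, the 20 highest and 12 lowest ratios past 2-fold with at least 20 UMIs and the same direction in every code with at least 10 members, and up to 4 members of each of 18 lists. Lmod1, Srf, Sncg, Alb by code, the Cnn1 peak and genes singled out within a paragraph were chosen after their values were seen. Alternatives were other thresholds of the rule, UMI minimums, thinning to 2000 UMIs, ependymal cells alone, other pseudocounts, filters and scalings, a replicate block, and leaving out each code or library.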

Additional observations from a re-analysis of the deposited data

Results flagged for a closer look

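The Cnn2 change at 5 dpi differed between genotypes by 6.92 on the log2 scale (interaction term in limma, adjusted p = 0.0176), the larger change being in Foxj1_Olig2_tdT, whose uninjured libraries read 0.0 and 0.8. The call was lost on leaving out 5 of the 12 libraries in turn. The cells outside the cell table, which no comparison used, held 8 Acta2 UMIs, 1 in each of 8 of the 215 cells, or 2.87 CPM against 1.08 CPM for the limit of 3 counts. None of these cells reached the 5 UMIs of the rule.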

How the results depend on the processing

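The rule selected 319 cells at a minimum of 3 UMIs, 91 at 10, 108 when both genes were required and 45 after thinning to 2000 UMIs, in place of 201. Higher genes numbered 126 with a minimum of 20 UMIs and 1244 with 1, and lower genes 245 and 1525, or 108 with ependymal cells alone (an alternative added after seeing the data), where 1 ependymal gene, Prom1, was past 2-fold in place of 0. Leaving out 1 code gave 195 to 228 higher and 215 to 574 lower genes, 5 to 9 contractile genes and 0 to 1 ependymal genes. Named genes changed direction as follows (log2 ratio). With ependymal cells alone they were Bcan 0.63, Col1a1 -0.26, Cspg4 0.50, Dcn -1.22, Fa2h 1.86, Mag 1.36, Mcam 0.53, Neu4 1.28, Olig1 0.14, Smad7 0.26, Trf 0.13 and Ugt8a 1.96. At a minimum of 10 they were Col3a1 -2.51, Dcn -1.04, Igfbp3 -2.85, Timp1 -0.13 and Tnc -0.59. At like depth it was Lcn2 (0.70). Leaving out 1 code gave -0.069 (without 020) to 5.39 for Col1a1, -0.79 (020) to 4.02 for Dcn, -2.27 (020) to 5.04 for Igfbp3 and -4.95 to 0.41 (020) for Lcn2. The cause was not tested beyond the collagen-rich cell of code 020 described above.

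In bulk, leaving out 1 library gave 3 to 14 contractile genes at 1 dpi and 7 to 19 at 5 dpi in Foxj1_tdT, 2 to 11 and 22 to 26 in Foxj1_Olig2_tdT, and 0 to 8 for the difference between genotypes. With the uninjured Foxj1_tdT pair as 1 library the counts were 3 and 8 in Foxj1_tdT, 5 at 1 dpi in Foxj1_Olig2_tdT and 0 for the difference, which was 2 with a pseudocount of 8 and 5 with quantile normalization, in place of 1. The difference was also 0 without either uninjured Foxj1_tdT library or 5 dpi replicate 2 of Foxj1_Olig2_tdT, and 8 without 5 dpi replicate 1 of Foxj1_tdT. Of 66 called contractile gene effects 64 kept their call with a pseudocount of 8, 66 with no filter, 66 with median-of-ratios factors, 64 with quantile normalization and 42 with the pair as 1 library. Replicate numbers did not pair the libraries (correlations of deviations -0.030 to 0.022 over 15 pairs), and with a replicate block 11, 18, 9 and 26 genes were called, 64 of the 66 keeping their call. Cut sites within 10 kb in place of 2 kb gave a log2 ratio of EP to ACNT classes of 1.06 for Tagln and 1.99 for Cnn1, in place of 0.11 and 4.20. Cnn1, Tpm2 and Lmod1 were found in 38, 15 and 19 members, and bulk depth is unknown.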
